A study of Mus musculus with 3 samples.

Results

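Astrocytes of the nucleus accumbens, a ventral striatal region that takes part in reward and aversion, were picked from single-cell RNA counts of dissociated mouse brain tissue. A cell entered the count if at least 300 genes were detected in it and at most 20% of its unique molecular identifiers (UMIs, 1 per captured RNA molecule) came from mitochondrial genes. An astrocyte had at least 4 UMIs in all from Aqp4, Gja1, Slc1a2 and Slc1a3, with at least 2 of these 4 genes detected. It also had no UMI of the oligodendrocyte genes Mog and Mag or of the precursor genes Pdgfra and Cspg4, and at most 1 UMI of the neuronal genes Snap25 and Syt1. By this rule 843 of 10291 kept cells were astrocytes, 308 in library 1, 367 in library 2 and 168 in library 3. All 3 libraries came from 1 group: Thy1::ChR2 mice, in which the Thy1 promoter drives the light-gated channel channelrhodopsin-2, with labelling by FLiCRE, a calcium- and light-gated recorder of neuronal activity, while ChR2 was stimulated with light in the accumbens. The tissue was cut from coronal slices 400 µm thick. No unstimulated or unlabelled group stood beside them in the samples used here, so nothing below separates an effect of stimulation, light or virus from the resting state. The sources used here do not give the sex or age of the mice, how many animals went into a library, or which barcode suffix in the pooled matrix belongs to which labelled replicate, so a library number is only a name. With library as a block in the fits, the p-values therefore measure how differences between cell groups within a library vary over these 3 libraries.

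Astrocytes are the glial cells that tile the grey matter and touch synapses with some processes and blood vessels with others. They take up glutamate and GABA after release, buffer the potassium that firing neurons set free, move water at the vessel wall, store glycogen, export lactate and cholesterol, and secrete proteins that shape synapses. After injury or inflammation they can raise Gfap, Vim and other genes, a state called reactive, and in the striatum a subset expresses Crym, the gene of the thyroid hormone-binding protein mu-crystallin.

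The astrocyte label held against genes that the rule did not use. Aldoc, an enzyme of glycolysis that marks astrocytes in the forebrain, stood at 3619, 4842 and 3586 CPM (UMIs of a gene per 1000000 UMIs summed over the cells of a class in a library, with no scaling by length) in the astrocytes of libraries 1, 2 and 3. All 11 markers outside the rule that had been listed passed the test described below as higher in astrocytes than in other non-neuronal cells, where 18.2% of all genes tested did. Of the genes that made the rule, Slc1a2 was detected in 99.7%, 97.0% and 99.4% of astrocytes and Aqp4 in 59.4%, 74.4% and 89.3%, which is a property of the selection. The 35 astrocytes at the lowest allowed sum of 4 held Aldoc at 1415 CPM and Clu at 1553 CPM. The 41 cells just outside, with a sum of 3, held Aldoc at 654.5 CPM and Clu at 529.8 CPM. A further 176 cells reached a sum of 4 but carried Mog or Mag, 51 carried Pdgfra or Cspg4, and 280 had more than 1 UMI of Snap25 and Syt1. None of these counted as astrocytes. Those with Mog, Mag, Pdgfra or Cspg4 could still enter the comparison group described below.

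Astrocytes made up 13.1% of kept cells in library 1 (exact Clopper-Pearson 95% interval 11.8 to 14.5), 6.04% in library 2 (5.45 to 6.67) and 9.02% in library 3 (7.76 to 10.4). The mean was 9.39% ± 3.55 (SD, n = 3 libraries), and with a ceiling of 10% mitochondrial UMIs it was 5.34%. Astrocytes carried more mitochondrial RNA than other non-neuronal cells, with medians of 8.49%, 11.8% and 12.7% of UMIs against 3.33%, 7.97% and 5.22%. These intervals cover counting error only. The depth behind the values was 538507, 843397 and 599605 UMIs summed over the astrocytes of the 3 libraries, with medians of 1469, 1815 and 3129 UMIs per astrocyte.

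Markers of other cell types were summed in each library. The level of 10 oligodendrocyte markers in astrocytes, with Mog and Mag at 0 by the rule, was 1326, 1508 and 6069 CPM, against 25572, 24670 and 42223 CPM in other non-neuronal cells, and Mbp, a myelin gene, stood at 581, 687 and 4046 CPM in the astrocytes, highest in library 3. Microglial markers summed to 251, 1029 and 714 CPM against 6783, 5697 and 3506 CPM, macrophage markers to 72.4, 1100.3 and 473.6 CPM against 6243, 3911 and 1493 CPM, and neuronal markers to 358, 1667 and 607 CPM against 20137, 16765 and 19894 CPM in neurons. The 8 ependymal markers had a higher sum in astrocytes than in the other non-neuronal cells in each library, at 414.1, 194.5 and 213.5 CPM against 68.1, 91.8 and 82.8 CPM. At least 2 of them were found in 13, 11 and 16 of the astrocytes. Barcodes shared between library pairs numbered 13, 7 and 22, and in none were both cells astrocytes.

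For the main comparison the raw counts of the astrocytes in a library were summed and set against the summed counts of the 3772 other non-neuronal cells of the same libraries (at most 1 UMI of Snap25, Syt1 and Snhg11), with library as a block. This comparison group also took cells that failed only other parts of the astrocyte rule, so it held some RNA of astrocyte genes. The 11 markers outside the rule had a median log2 fold change of 4.02. It was 5.53 without comparison cells that held more than 1 UMI of Aqp4, Gja1, Slc1a2 and Slc1a3. Of 9888 genes tested with edgeR's quasi-likelihood test, 1804 (18.2%) were higher and 1872 (18.9%) lower in astrocytes at an adjusted p under 0.05, and the 11 genes that made the selection are in neither count. The cells were sorted by 11 of their own genes, so these counts describe how astrocyte RNA differs from the rest and are no test that astrocytes form a class. Fold changes below are on the log2 scale with their standard error (SE), and the median over all genes tested was -0.06. Counts of listed genes against these other cells are to be read beside the 18.2% higher and 18.9% lower.

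Cldn10 (ENSMUSG00000022132), a tight-junction protein of the claudin family, stood at 514, 917 and 420 CPM in astrocytes and at 14.1, 59.7 and 21.5 CPM in other non-neuronal cells, a log2 fold change of 4.55 ± 0.29 (SE, edgeR adjusted p = 4.77e-09). Plcd4 (ENSMUSG00000026173), a phospholipase C that cuts membrane phosphoinositides, was lower in level but had the largest fold change of the genes named by size: 124, 103 and 78.4 CPM against 3.51, 7.09 and 2.29 CPM, or 4.66 ± 0.33 (edgeR adjusted p = 1.38e-08). For both genes the lowest astrocyte library lay far above the highest library of the other cells. Slc39a12, a zinc importer, hardly varied among astrocytes, at 186, 187 and 185 CPM against 7.02, 9.33 and 13.7 CPM (4.35 ± 0.28). The transcription factor Sox9 (ENSMUSG00000000567), which directs glial fate, stood at 568, 311 and 652 CPM against 23.2, 25.8 and 47.1 CPM (4.12 ± 0.27). The other 11 genes of the 15 with the largest increase were Btbd17, Slc6a11, Rorb, 2900052N01Rik, Ntsr2, Clu, Nkain4, Aldoc, Grin2c, Fgfr3 and Eva1a, with log2 fold changes from 4.08 to 4.37. The 15 genes did not overlap between the cell groups in any pair of libraries, which held for 17.1% of all genes tested in that direction. They were picked for the largest differences with the same sign in each library, so the lack of overlap follows from the choice and is no added support.

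The 5 largest decreases were genes of other cell types. Cldn11, the claudin of myelin, stood at 31.6, 67.6 and 61.7 CPM against 1613, 1810 and 3156 CPM (-5.18 ± 0.32, edgeR adjusted p = 4.77e-09). Fa2h (a myelin lipid enzyme), Abcb1a (the drug exporter of brain vessels), Tagln (smooth muscle) and Kcna1 (a potassium channel) stayed at or below 3.71 CPM in every astrocyte library.

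**Figure D1:**
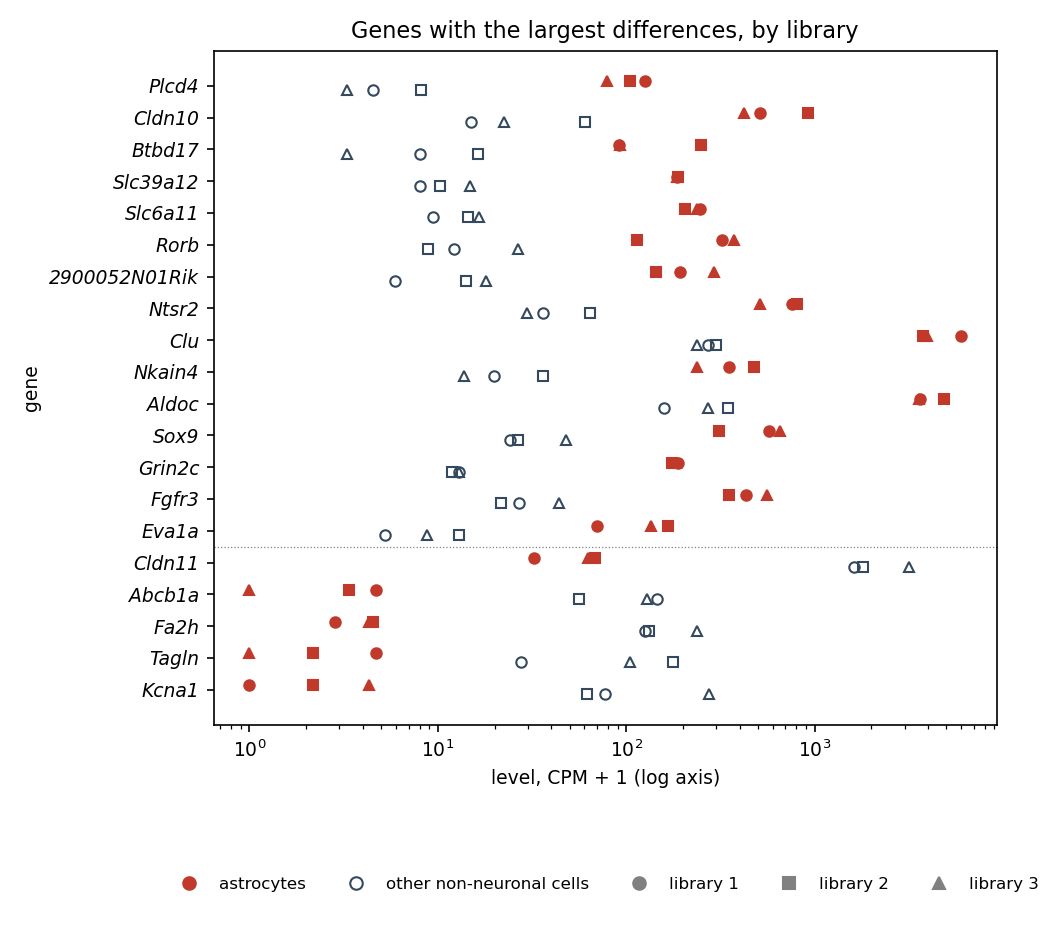
Level of the 20 genes with the largest differences, in CPM + 1 on a log axis, with 1 symbol per library; filled red symbols are astrocytes and open dark symbols other non-neuronal cells. The 15 genes above the dotted line are higher in every astrocyte library and the 5 below it, such as Cldn11 at 31.6 to 67.6 CPM against 1613 to 3156 CPM, are lower.

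Genes for transmitter uptake and recycling were mostly higher: of 26 tested, 16 rose, 2 fell and 8 did not pass, with a median log2 fold change of 1.72. Slc6a11, the GABA transporter GAT-3 of astrocytes, stood at 245, 204 and 237 CPM against 8.43, 13.4 and 15.6 CPM (4.32 ± 0.27, edgeR adjusted p = 4.98e-09). Against the 3848 neurons of the same libraries (at least 4 UMIs of Snap25, Syt1 and Snhg11), it was 5.45 ± 0.25 higher in astrocytes. The glycine cleavage genes rose together: Gldc by 4.04 ± 0.30, Gcsh by 2.16 ± 0.24 and Amt by 2.59 ± 0.35. The amino acid exchangers Slc7a11 (cystine for glutamate, 2.95 ± 0.24), Slc7a10 (D-serine and small neutral amino acids, 4.06 ± 0.28) and Slc1a4 (neutral amino acids, 3.83 ± 0.25) were higher too. Slc38a2, an amino acid transporter of the system A type, was lower (-2.98 ± 0.28), as was Ddc, the aromatic amino acid decarboxylase (-4.21 ± 0.64), which had 1.86, 0 and 1.67 CPM in astrocytes.

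Glul, glutamine synthetase, which turns glutamate taken up by astrocytes into glutamine, did not separate astrocytes from the other non-neuronal cells. It stood at 2143, 1618 and 1734 CPM in astrocytes and at 614.5, 1440 and 2035 CPM in the other cells, so the groups overlapped (0.71 ± 0.37, edgeR adjusted p = 0.16). The value was 0.08 without library 1 and 1.19 without library 3. In oligodendrocytes (1001 cells with at least 2 UMIs of Mog and Mag) Glul averaged 2388 CPM, a difference of -0.32 ± 0.33 for astrocytes (edgeR adjusted p = 0.48), whereas in neurons it averaged 107.6 CPM (4.70 ± 0.30). The comparisons with neurons, with oligodendrocytes and with all other non-neuronal cells share the same astrocyte sums, and their values are given side by side only.

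Genes of potassium, ion and water balance gave one of the fullest lists, with 20 of 24 tested genes higher, 3 lower and a median of 2.01. Atp1b2, a glial beta subunit of the sodium-potassium pump, stood at 1499, 1375 and 1511 CPM against 94.8, 158.7 and 178.9 CPM (3.53 ± 0.28). Fxyd1, the small regulator of the pump known as phospholemman, was 3.77 ± 0.32 higher. The bicarbonate carrier Slc4a4 (3.73 ± 0.25), the membrane protein Mlc1 of the vessel-facing endfeet (4.06 ± 0.28) and the potassium channel Kcnk1 (4.04 ± 0.30) rose. Slc12a2, which loads cells with chloride, and Car2, a carbonic anhydrase, fell by 2.51 and 2.78 on the log2 scale, and both were far higher in oligodendrocytes (311.2 and 7960 CPM).

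Junction genes divided between glial types. Gjb6, the connexin of astrocytes that pairs with the selection gene Gja1, was 4.05 ± 0.29 higher, at 172.7, 221.7 and 148.4 CPM. The oligodendrocyte connexin gene Gjc3 was lower (-4.32 ± 0.34), with at most 5.57 CPM in any astrocyte library. Over the list of junction and endfoot genes 3 of 12 tested were higher and 5 lower, with a median of -0.02. Over all genes tested 18.2% were higher and 18.9% lower, with a median of -0.06, so the list as a whole was not shifted toward astrocytes.

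Among genes of lipid and cholesterol handling, 26 of 38 tested were higher and 4 lower (median 1.26). Apoe, the main lipid carrier of brain, was the third most abundant RNA outside mitochondrial and ribosomal genes: 24198, 24157 and 13532 CPM in astrocytes, against 14938, 7690 and 3953 CPM in the other cells. Its log2 fold change was 1.53 ± 0.35 (edgeR adjusted p = 0.0019), and it did not pass without library 2 (1.39, adjusted p = 0.14) or without library 3 (1.39, adjusted p = 0.12). Apoe was 5.10 ± 0.40 higher than in neurons and 2.73 ± 0.24 higher than in oligodendrocytes. Clu (clusterin, ENSMUSG00000022037), another secreted lipid-binding protein, gave a larger difference from the other non-neuronal cells: 5985, 3739 and 3946 CPM against 269.7, 298.0 and 237.0 CPM (4.21 ± 0.31). Plpp3, a lipid phosphate phosphatase, was 3.62 ± 0.26 higher than in other non-neuronal cells and 6.998 ± 0.27 higher than in neurons. Acsbg1 and Acsl6, which activate fatty acids, rose by 4.02 ± 0.25 and 3.85 ± 0.24, the cholesterol exporter Abca1 by 2.14 ± 0.23 and Lcat, which esterifies cholesterol, by 2.88 ± 0.34. The exporter Abcg1 (-3.06 ± 0.40, -3.91 without library 2) and the fatty acid-binding protein Fabp5 (-1.26 ± 0.26) were lower.

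Genes of glycolysis, lactate and glycogen were higher in 23 of 33 tested and lower in 3 (median 1.11). Pygb, the brain form of glycogen phosphorylase, stood at 347.3, 106.7 and 165.1 CPM against 21.8, 23.1 and 16.9 CPM (3.29 ± 0.32, edgeR adjusted p = 9.74e-07). Ppp1r3c and Ppp1r3g, which bring a phosphatase to glycogen, were 3.51 ± 0.27 and 4.28 ± 0.39 higher (Ppp1r3g 5.23 without library 2), and glycogen synthase Gys1 was 2.36 ± 0.38 higher, while Gbe1, the glycogen branching enzyme, did not pass (0.56 ± 0.36, edgeR adjusted p = 0.25). Ldhb, the lactate dehydrogenase subunit that favours pyruvate, was higher than in other non-neuronal cells (2.40 ± 0.25), neurons (1.47 ± 0.23) and oligodendrocytes (3.25 ± 0.30). Its partner Ldha had -0.01 ± 0.21 against the other non-neuronal cells (edgeR adjusted p = 0.97), -0.03 ± 0.18 against neurons and 1.69 ± 0.28 against oligodendrocytes. The glucose transporter Slc2a1, which brain vessels carry at a high level, was lower than in the other non-neuronal cells as a whole (-1.18 ± 0.24) and higher than in neurons (2.89 ± 0.26). Hexokinase Hk2 fell (-2.98 ± 0.35) and hexokinase Hk1 rose (1.56 ± 0.25). Against oligodendrocytes 27 of 30 tested genes of this list were higher and none was lower (median 1.82), where 23.8% of all 7572 genes tested were higher and 20.2% lower.

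Glial transcription factors were higher in 32 of 47 tested and lower in 6 (median 1.86). Rorb, a nuclear receptor, stood at 319.4, 112.6 and 373.6 CPM against 11.2, 7.84 and 25.6 CPM (4.28 ± 0.28). Nr2e1 (4.21 ± 0.35) and Lhx2 (3.53 ± 0.29), both factors of forebrain progenitors, Id4, an inhibitor of DNA-binding factors (3.95 ± 0.24), and Sox2, a progenitor factor (2.77 ± 0.25), were higher as well. The 6 lower factors were Sox10, Nkx6-2, Olig1, Olig2, Nkx2-2 and Id1, of which the first 5 belong to the oligodendrocyte lineage. Without library 3 Nkx2-2, Olig2 and Id1 did not pass (edgeR adjusted p = 0.27, 0.15 and 0.055). Sox10 was at 1.86, 4.74 and 5.003 CPM in astrocytes against 125.0, 100.1 and 183.0 CPM (-4.87 ± 0.36), while Olig1 kept 55.7, 52.2 and 70.1 CPM (-2.49 ± 0.24).

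Growth factor and morphogen genes were higher in 29 of 38 tested and lower in 5 (median 2.04). The receptors Ntrk2, which binds the neurotrophin BDNF, and Fgfr3, a receptor of fibroblast growth factors, were among the higher: Ntrk2 at 1760, 818.1 and 1161 CPM against 115.2, 103.1 and 93.8 CPM (3.67 ± 0.27, edgeR adjusted p = 1.9e-08), and Fgfr3 by 4.08 ± 0.24. Ednrb, the endothelin receptor of astrocytes, was 3.12 ± 0.24 higher. Of ligands, Wnt7b (3.88 ± 0.27), Vegfa (2.96 ± 0.29), midkine Mdk (2.75 ± 0.23) and the pleiotrophin gene Ptn (1.67 ± 0.28) rose. The ligand Pdgfa, which acts on oligodendrocyte precursors, was lower (-2.37 ± 0.27), and so was the receptor Tgfbr1 (-3.08 ± 0.33).

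Receptors for transmitters and peptides were higher in 16 of 33 tested and lower in 5, with a median of 0.39. The neurotensin receptor Ntsr2 stood at 761.4, 806.3 and 513.7 CPM against 35.1, 63.5 and 28.8 CPM (4.22 ± 0.26). The NMDA receptor subunit Grin2c (4.11 ± 0.25), the sphingosine-1-phosphate receptor S1pr1 (3.04 ± 0.23), the PACAP receptor Adcyap1r1 (3.11 ± 0.32) and the GABA-A subunits Gabrb1 (2.84 ± 0.23) and Gabrg1 (3.21 ± 0.32) were higher. The metabotropic glutamate receptors went different ways. Grm3, which inhibits adenylyl cyclase, stood at 156.0, 87.7 and 186.8 CPM against 42.8, 26.1 and 51.7 CPM (1.97 ± 0.23, edgeR adjusted p = 2.6e-06) and was 1.72 ± 0.20 higher than in neurons. Grm5, which couples to calcium release, stood at 9.29, 34.4 and 31.7 CPM, did not pass against the other non-neuronal cells (-1.06 ± 0.40, edgeR adjusted p = 0.054) and was 3.88 lower than in neurons on the log2 scale, where it averaged 559.4 CPM. For extracellular nucleotides, the ATP-degrading enzyme Entpd2 (4.5 ± 0.35) and adenosine kinase Adk (2.42 ± 0.25), which clears adenosine inside the cell, were higher.

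Secreted and surface proteins that face synapses were higher in 33 of 46 tested and lower in 4 (median 1.85). The matrix proteoglycan Bcan (brevican) stood at 703.8, 608.3 and 725.5 CPM against 52.7, 62.7 and 59.0 CPM (3.69 ± 0.24), and the link protein Hapln1, which ties such proteoglycans to hyaluronan, was 4.03 ± 0.34 higher. Chrdl1, which promotes the maturation of AMPA receptors at synapses, was 3.94 ± 0.32 higher, and Sparcl1 (hevin), which helps synapses form, was 2.32 ± 0.25 higher. Sparc, known to counter hevin, did not pass (0.52 ± 0.25, edgeR adjusted p = 0.11). Nrxn3, a synaptic adhesion gene that neurons express, was 1.08 lower than in other non-neuronal cells and 4.01 lower than in neurons on the log2 scale, and the first of these did not pass without library 1 or 3. Cst3, the secreted protease inhibitor cystatin C, was the fourth most abundant RNA outside mitochondrial and ribosomal genes, at 23250, 19918 and 11960 CPM (2.51 ± 0.33). The engulfment receptors Mertk (1.94 ± 0.27) and Megf10 (1.61 ± 0.32) were higher.

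**Figure D2:**
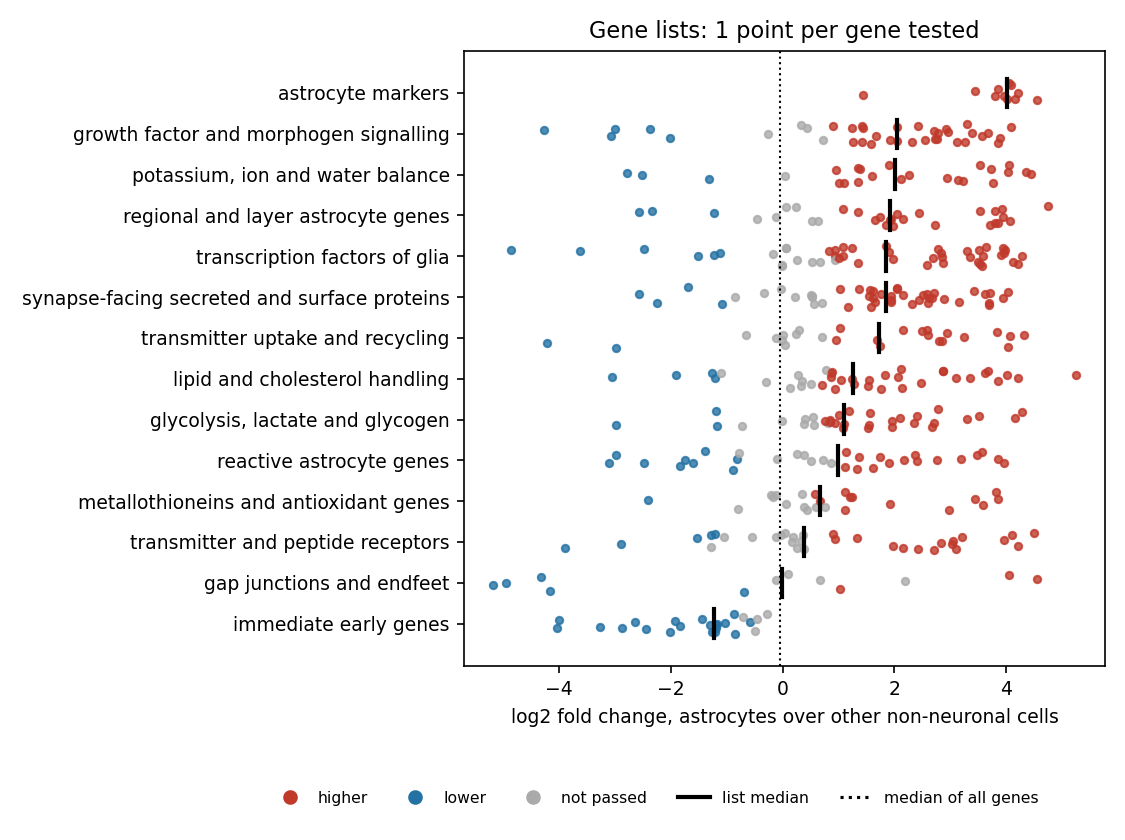
Log2 fold change of astrocytes over other non-neuronal cells for each tested gene of 14 gene lists, 1 point per gene, red for higher, blue for lower and grey for not passed; black bars are list medians and the dotted line is the median of all genes (-0.06). Marker, growth factor and ion balance genes lie to the right with medians of 4.02, 2.04 and 2.01, and immediate early genes to the left with a median of -1.24.

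Most lists gave counts in the same direction against single cell classes. Against neurons 30.4% of 8941 genes were higher and 28.9% lower, with a median of -0.01 over all genes. There 17 of 23 uptake genes were higher and 3 lower (median 2.95), 30 of 37 lipid genes higher and 2 lower (2.999), 32 of 40 transcription factors higher and 2 lower (2.95) and 24 of 25 reactive genes higher and 1 lower (4.91). Receptors were divided, with 15 of 34 higher and 13 lower (median 0.33). Among the 13 were Grm5, Drd1, Oprk1, Chrm1 and Cnr1, receptors of striatal neurons. Against oligodendrocytes 23.8% of 7572 genes were higher and 20.2% lower, with a median of 0.01 over all genes. There 13 of 23 uptake genes were higher and 4 lower (median 1.86), 20 of 28 receptor genes higher and 1 lower (1.83), and 33 of 43 synapse-facing genes higher and 1, Il33, lower (3.57).

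Several genes often used to mark astrocytes were shared with oligodendrocytes in these cells. S100b, a calcium-binding protein, stood at 917.4, 654.5 and 913.9 CPM in astrocytes and averaged 654.0 CPM in oligodendrocytes (0.45 ± 0.22, edgeR adjusted p = 0.12). Kcnj10, the potassium channel Kir4.1, stood at 226.6, 128.1 and 283.5 CPM against a mean of 157.9 CPM (0.34 ± 0.24, edgeR adjusted p = 0.26). Both were at least 5.26 higher than in neurons on the log2 scale. The complement gene C4b (-0.03 ± 0.19), the serine synthesis enzyme Phgdh (-0.02 ± 0.21) and the fatty acid desaturase Scd2 (-0.04 ± 0.23) likewise did not pass against oligodendrocytes, although each was higher than in the mixture of all other non-neuronal cells (1.12, 1.02 and 1.05). Phgdh did not pass that comparison without library 2 (edgeR adjusted p = 0.051), nor Scd2 without library 3 (0.071). With SEs of 0.19 to 0.24 a difference of that order would have been missed, so equal levels are not shown. Il33, an alarmin that glia release, was higher in oligodendrocytes (mean 2074 CPM) than in astrocytes (68.7, 168.4 and 173.4 CPM), a log2 fold change of -3.92 ± 0.23 for astrocytes (edgeR adjusted p = 2.4e-09), and still 3.56 ± 0.28 higher in astrocytes than in neurons.

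**Figure D3:**
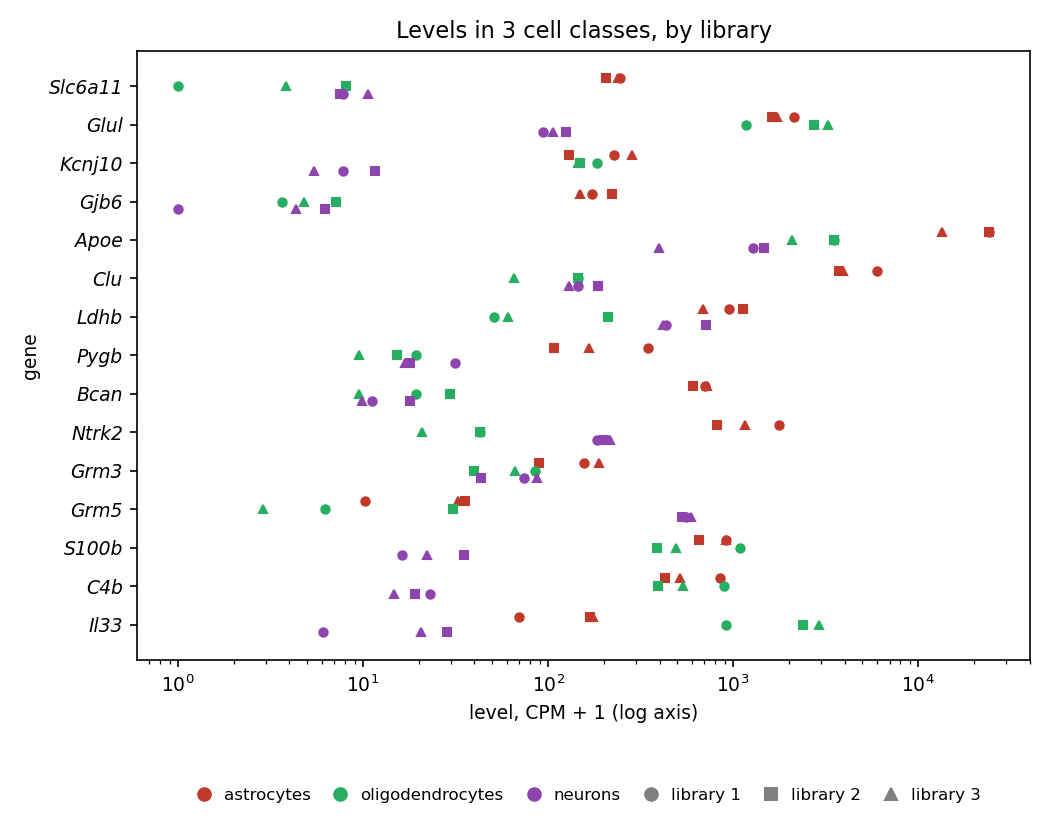
Level of 15 genes in astrocytes (red), oligodendrocytes (green) and neurons (purple), in CPM + 1 on a log axis with 1 symbol per library. Slc6a11, Gjb6, Apoe and Clu separate astrocytes from both other classes, Glul, Kcnj10, S100b and C4b overlap with oligodendrocytes, Grm5 is highest in neurons and Il33 in oligodendrocytes.

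Reactive genes were divided. Of 32 tested 16 were higher and 9 lower than in other non-neuronal cells, with a median of 0.99. The filament gene Gfap stood at 4386, 2331 and 3842 CPM against 213.5, 270.7 and 301.5 CPM (3.86 ± 0.32, edgeR adjusted p = 5.17e-08), and Vim, another filament gene, at 657.4, 671.1 and 862.2 CPM against 195.9, 285.6 and 250.3 CPM (1.74 ± 0.23). Gfap is also a general astrocyte marker. Ptx3, a secreted pentraxin, had the largest fold change of the list at a far lower level (22.3, 41.5 and 101.7 CPM, 3.95 ± 0.45, and 4.86 without library 2). The 9 lower genes included the filament gene Synm (-2.98 ± 0.49, with -2.36 without library 1 and -3.97 without library 3), the MHC class I genes H2-D1 (-1.61 ± 0.23) and H2-K1 (-0.89 ± 0.26, not passing without library 1 or 2 at edgeR adjusted p = 0.071 and 0.12) and ceruloplasmin Cp (-1.75 ± 0.27). The part of microglia and vessel cells of the comparison group in these values was not tested. Against oligodendrocytes 18 of 26 reactive genes were higher, Cp among them, and 2, Synm and H2-D1, were lower. Over all genes tested there 23.8% were higher and 20.2% lower. Several of the 16 genes higher than in other non-neuronal cells varied widely among libraries. Cd44, a hyaluronan receptor, stood at 98.4, 79.4 and 428.6 CPM in astrocytes (2.75 ± 0.54, and 1.99 without library 3), found in 82 of 168 astrocytes of library 3 but in 41 of 308 and 40 of 367 of the others. S100a10, a calcium-binding protein counted among reactive genes, stood at 107.7, 221.7 and 657.1 CPM (1.62 ± 0.45, edgeR adjusted p = 0.027), 0.96 without library 3 and not passing without library 2 (adjusted p = 0.11). Library 3 is also where Mbp was highest and cells were deepest, and the part of these in the Cd44 and S100a10 values was not tested.

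Metallothioneins, small proteins that bind zinc and copper, gave 3 of the 10 most abundant RNAs of astrocytes outside mitochondrial and ribosomal genes, beside the nuclear RNA Malat1. Mt1 (ENSMUSG00000031765) stood at 44759, 9398 and 27722 CPM in astrocytes against 3292, 1404 and 2733 CPM in the other non-neuronal cells (3.44 ± 0.37, edgeR adjusted p = 1.24e-06). Mt2 (ENSMUSG00000031762) stood at 11047, 2503 and 9621 CPM against 641.9, 332.7 and 579.7 CPM (3.85 ± 0.34), and Mt3 (ENSMUSG00000031760), the brain form, at 14576, 3384 and 7723 CPM against 778.9, 383.8 and 617.3 CPM (3.82 ± 0.34). All 3 genes were lowest in library 2 in both groups of cells, and the spread was wider in astrocytes: the highest library exceeded the lowest 4.76-fold for Mt1 against 2.34-fold in the other cells, 4.41-fold against 1.93-fold for Mt2 and 4.31-fold against 2.03-fold for Mt3. The median spread over 257 genes of at least 500 CPM in astrocytes was 1.64-fold. Mt1 was found in 307 of 308, 360 of 367 and 168 of 168 astrocytes. Of the list of metallothionein and antioxidant genes 12 of 23 tested were higher and 1 lower (median 0.66), among them the peroxiredoxin Prdx6 (3.58 ± 0.31) and the glutathione transferase Gstm1 (2.97 ± 0.26).

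The 3 metallothionein genes lie side by side on mouse chromosome 8 and moved together between libraries, so the 250 bases before each start site are shown (RefSeq, GRCm38.p6: Mt1 at chr8:94178839-94179088, Mt2 at chr8:94172368-94172617 and Mt3 at chr8:94152357-94152606, all on the plus strand). Capitals mark matches to the core of the metal response element, TGCACNC or TGCGCNC on either strand, the letters bound by the zinc-sensing factor MTF1.
Mt1: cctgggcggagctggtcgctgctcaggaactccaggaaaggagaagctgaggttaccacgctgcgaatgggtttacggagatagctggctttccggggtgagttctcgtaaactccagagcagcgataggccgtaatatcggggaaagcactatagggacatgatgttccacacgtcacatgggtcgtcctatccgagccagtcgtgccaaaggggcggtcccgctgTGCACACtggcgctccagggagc
Mt2: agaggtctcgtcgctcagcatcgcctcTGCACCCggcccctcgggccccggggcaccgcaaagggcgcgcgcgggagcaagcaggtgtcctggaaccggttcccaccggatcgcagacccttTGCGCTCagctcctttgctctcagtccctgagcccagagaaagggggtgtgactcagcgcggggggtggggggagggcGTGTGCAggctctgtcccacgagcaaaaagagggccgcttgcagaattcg
Mt3: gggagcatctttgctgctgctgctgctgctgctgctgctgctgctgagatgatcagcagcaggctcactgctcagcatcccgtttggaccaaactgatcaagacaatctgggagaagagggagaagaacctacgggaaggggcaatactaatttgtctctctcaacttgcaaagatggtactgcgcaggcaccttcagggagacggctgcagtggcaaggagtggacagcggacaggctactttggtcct
The Mt1 window held 1 match, 23 to 17 bases before the start, the Mt2 window held 3, and the Mt3 window held none of these letters. Only these 250 bases before the RefSeq start were searched, so the counts do not cover matches elsewhere near a gene. Of 32851 such windows over all genes 21.4% held at least 1 match and 5.17% at least 2. A match is a description of letters, and no binding was measured in these libraries.

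Other genes differed between the astrocytes of the 3 libraries without following the metallothioneins. Cxcl10 (ENSMUSG00000034855), a chemokine induced by interferons, spanned 10.9-fold: 96.6, 461.2 and 1056 CPM against 25.99, 134.0 and 139.1 CPM in the other non-neuronal cells (2.38 ± 0.26, edgeR adjusted p = 1.33e-06). It came from few cells, 11 of 308, 59 of 367 and 30 of 168 astrocytes, and the 5 richest cells of each library held 86.5%, 54.0% and 68.1% of its UMIs. Hes5 (ENSMUSG00000048001), a target of Notch signalling in neural progenitors and glia, stood at 195.0, 1024 and 215.1 CPM and was found in 223 of 367 astrocytes of library 2, against 52 of 308 and 40 of 168. In the other non-neuronal cells Hes5 was also highest in library 2 (101.6 CPM against 23.2 and 14.6 CPM). Thbs4, of the thrombospondin family of secreted proteins, was found in 25 of 308 astrocytes of library 1, in 1 of 367 in library 2 and in none of 168 in library 3, with 46, 1 and 0 UMIs. Ribosomal protein genes were lowest in library 2 in 45 of 59 cases in astrocytes and in 57 of 59 in the other cells. The share of all genes lowest in library 2 was not counted. Other genes, Gfap and Ntrk2 among them, were also lowest there in astrocytes, so the counts show no trait particular to ribosomal genes. The labels tie no difference of animal, dissection or preparation to a library, so these cannot be told apart.

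**Figure D4:**
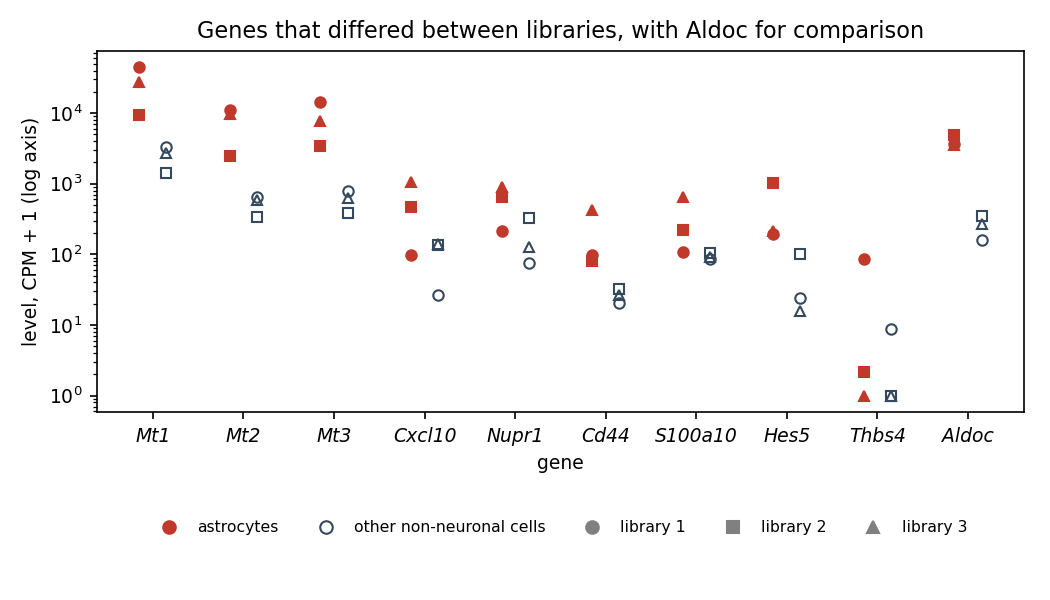
Level of 10 genes in the astrocytes (filled red) and other non-neuronal cells (open) of each library, in CPM + 1 on a log axis. Mt1, Mt2 and Mt3 are lowest in library 2, Cxcl10, Cd44 and S100a10 highest in library 3, Hes5 highest in library 2 and Thbs4 nearly confined to library 1, while Aldoc stays between 3586 and 4842 CPM in astrocytes.

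Immediate early genes, which neurons switch on within minutes of firing and many cells on handling, were lower in astrocytes than in the other non-neuronal cells: of 24 tested none was higher and 20 were lower, with a median of -1.24, and with any 1 library left out 16 to 18 were lower. Fos stood at 40.9, 91.3 and 136.8 CPM against 195.2, 242.7 and 229.2 CPM (-1.26 ± 0.26, edgeR adjusted p = 0.00086), Junb was lower by a similar amount (-1.21 ± 0.27), and Klf2 (-4.00 ± 0.32), Sgk1 (-3.27 ± 0.34) and Dusp1 (-2.64 ± 0.30) fell further. Klf2 is also a gene of vessel walls, Sgk1 of oligodendrocytes (252.6 CPM), and the part of the make-up of the comparison group in these values was not tested. Without library 2 the values were -4.76 for Klf2 and -4.08 for Sgk1. Against neurons the list was divided, with 4 of 23 tested genes higher and 10 lower (median -0.39), where 30.4% of all genes tested were higher and 28.9% lower. Fos was 1.18 ± 0.21 higher in astrocytes than in neurons (mean 60.8 CPM), together with Jun (1.32 ± 0.22), Klf6 and Socs3, while Egr1 (-3.27 ± 0.32; mean 495.6 CPM in neurons), Arc (-3.40 ± 0.47) and Nr4a1 (-2.22 ± 0.38) were lower. Against oligodendrocytes 3 of 14 were higher and 4 lower (median -0.13), near the shares over all genes tested (23.8% higher and 20.2% lower). Fos had -0.11 ± 0.25 there (edgeR adjusted p = 0.76). No library without stimulation was analysed here, so none of these values speaks to induction.

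Crym (ENSMUSG00000030905) was one of the regional astrocyte genes, of which 21 of 30 tested were higher and 3 lower (median 1.93). It stood at 1408, 1468 and 792.2 CPM against 72.3, 160.2 and 68.6 CPM (3.81 ± 0.28, edgeR adjusted p = 1.9e-08), and it was 3.84 ± 0.22 higher than in neurons, where it averaged 131.1 CPM. Fam107a, an actin-binding stress-response gene (3.92 ± 0.25), and the chemokine Cxcl14 (3.81 ± 0.27) were higher as well. Meis2, a factor of striatal neurons, had 0.06 ± 0.37 against other non-neuronal cells (edgeR adjusted p = 0.93). Crym was unevenly spread over astrocytes, with UMIs in 155 of 308, 199 of 367 and 62 of 168 of them.

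To compare astrocytes with one another at equal depth, those of at least 1000 UMIs (226, 301 and 149 by library) were thinned to 1000 UMIs each. The ratio of variance to mean of the thinned counts has a value of 1 under pure counting error and had a median of 1.03 over 2021 genes. Among the highest were Malat1 (36.8), Mt1 (9.27), Fth1 (8.84), Cst3 (6.91), Apoe (6.90), Mbp (6.19), Tmsb4x (5.92), mt-Atp6 (5.68) and Dbi (3.89). Mbp is a myelin gene, and the part of RNA from oligodendrocytes in this order was not tested. Of genes that astrocytes themselves are known for, Crym (3.27), Gfap (3.22), Igfbp2 (2.93), Vim (2.88) and Hes5 (2.62) followed, chosen after their values were seen.

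Gfap split the thinned astrocytes into 190, 183 and 127 with and 36, 118 and 22 without a Gfap UMI, so that 84.1%, 60.8% and 85.2% were positive. Of the positive cells 30, 65 and 22 had exactly 1 Gfap UMI and lie near the cut, and before thinning positive cells were deeper (medians 1982, 2501 and 3559 against 1507.5, 1711 and 2414 UMIs). Of 2049 genes tested with edgeR, 9 (0.439%) were higher and 5 (0.244%) lower in Gfap-positive cells, with no count for Gfap itself. Cxcl10 stood at 52.6, 601.1 and 826.8 CPM in Gfap-positive and 0, 50.9 and 181.8 CPM in Gfap-negative astrocytes (3.17 ± 0.37, edgeR adjusted p = 2.06e-05). Gbp2 (ENSMUSG00000028270), an interferon-induced GTPase, stood at 52.6, 300.5 and 212.6 CPM against 0, 93.2 and 0 CPM (2.03 ± 0.45, edgeR adjusted p = 0.027). The Gfap-negative sums held only 35998, 117989 and 21997 UMIs by library, so the levels of both genes there rest on few molecules. Over all astrocytes before thinning, the 5 richest cells of each library held 55.6%, 28.4% and 57.7% of Gbp2 UMIs. Vim, the partner of Gfap in the filament, stood at 557.9, 868.9 and 937.0 CPM against 305.6, 271.2 and 181.8 CPM (1.62 ± 0.25). Nupr1, a stress-response gene (1.74 ± 0.27), Dhrs1, a dehydrogenase (1.54 ± 0.22), Igfbp5 (1.25 ± 0.26), Sparc (1.12 ± 0.26) and Cpe (0.82 ± 0.14) rose too. Of the reactive list 3 of 15 tested genes were higher (Cxcl10, Gbp2 and Vim) and none lower, with a median of 0.97 against 0.01 over all genes tested, while of the uptake, glycolysis and receptor lists none of 18, 20 and 16 tested genes passed.

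Hes5 went the other way, at 105.3, 803.3 and 157.5 CPM in Gfap-positive against 944.4, 1966 and 681.8 CPM in Gfap-negative astrocytes (-1.81 ± 0.26, edgeR adjusted p = 0.00046), lower in each of the 3 libraries. Btbd17 (-1.32 ± 0.29), Malat1 (-1.06 ± 0.16), Gm3764 (-0.97 ± 0.23) and the X-inactivation RNA Xist (-0.95 ± 0.19) were also lower. Malat1 and Xist stay in the nucleus, and Gfap-positive cells also had more mitochondrial RNA (medians 8.99%, 13.2% and 12.9% against 7.41%, 10.2% and 9.64%) besides their greater depth, and the part of these in the split was not tested. Without library 1, 2 or 3 the counts became 0 higher and 0 lower, 0 and 1, and 0 and 2, in fits of 2 libraries that leave 1 residual degree of freedom. Without the library block 0 genes passed in either direction (74 genes at an unadjusted p under 0.05), and without thinning 1 gene was higher and none lower. Among these fits the calls shared with the fit of all 3 libraries were Hes5 without library 2 (-2.66, edgeR adjusted p = 0.0038) and Dhrs1 without thinning (2.001, edgeR adjusted p = 0.027). Over all alternatives the value for Cxcl10 ranged from 1.23 to 3.39 and that for Hes5 from -2.66 to -1.37.

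Cxcl10 and Gbp2, both interferon-induced, were picked from the 9 genes higher in Gfap-positive astrocytes after the calls were seen. Neither passed without library 1 (edgeR adjusted p = 0.54 for both), nor Cxcl10 without library 2 (0.11) or Gbp2 without library 3 (0.39). No list of interferon-induced genes was tested. The 250 bases before their start sites are shown (RefSeq, GRCm38.p6: Cxcl10 at chr5:92348890-92349139 on the minus strand and Gbp2 at chr3:142620413-142620662 on the plus strand). Capitals mark GAAA followed by any 2 bases and a second GAAA, on either strand, the core of the interferon-stimulated response element bound by IRF and STAT factors.
Cxcl10: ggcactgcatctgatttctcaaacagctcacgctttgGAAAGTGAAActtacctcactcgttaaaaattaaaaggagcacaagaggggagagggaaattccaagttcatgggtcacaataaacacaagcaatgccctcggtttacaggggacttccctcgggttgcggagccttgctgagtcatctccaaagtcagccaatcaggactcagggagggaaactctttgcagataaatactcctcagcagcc
Gbp2: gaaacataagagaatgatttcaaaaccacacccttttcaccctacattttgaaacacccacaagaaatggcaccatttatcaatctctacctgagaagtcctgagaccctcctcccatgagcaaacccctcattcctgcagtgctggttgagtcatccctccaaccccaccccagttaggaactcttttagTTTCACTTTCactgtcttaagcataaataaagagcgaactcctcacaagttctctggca
Each window held 1 match, 213 to 204 bases before the start in Cxcl10 and 59 to 50 in Gbp2, and 2.98% of 32851 windows over all genes held at least 1. Binding was not measured, and the match in these letters says nothing of which factor binds there.

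Crym, taken as a second cut after its spread had been seen, was present in 50.9%, 45.9% and 30.2% of the thinned astrocytes (115, 138 and 45 positive against 111, 163 and 104 negative). Of 1806 genes tested, 10 (0.554%) were higher and 13 (0.72%) lower in Crym-positive cells by edgeR. Lmo1, a transcriptional cofactor of the LIM-only family, stood at 156.5, 289.9 and 111.1 CPM in Crym-positive against 63.1, 73.6 and 9.62 CPM in Crym-negative astrocytes (1.83 ± 0.37, edgeR adjusted p = 0.00024), and it did not pass without library 2 (1.69, adjusted p = 0.48). Igfbp2, which binds insulin-like growth factors, was lower in each library, at 191.3, 173.9 and 66.7 CPM against 315.3, 533.7 and 346.2 CPM (-1.41 ± 0.26, edgeR adjusted p = 2.26e-05), and did not pass without library 2 either (-1.20, adjusted p = 0.19). Gjb6 (-1.05 ± 0.30), the lipogenic gene Thrsp (-1.23 ± 0.35) and the mitochondrial calcium regulator Mcur1 (-1.65 ± 0.41) were lower and Tmem100 (1.04 ± 0.29) higher. None of these 4 calls held with each library left out in turn: Gjb6 did not pass without library 1, 2 or 3 (edgeR adjusted p = 0.055, 0.74 and 0.088), Mcur1 without library 1 or 2 (0.083 and 0.38), Tmem100 without library 1 (0.054) or 2 (0.249 on the log2 scale, adjusted p = 0.95), and Thrsp without library 3 (0.10). The microglial gene C1qa (-1.38, edgeR adjusted p = 0.023) and the myelin gene Mbp were also among the 13 lower genes. C1qa did not pass without library 3 (-1.17, edgeR adjusted p = 0.25). The part of RNA from microglia and oligodendrocytes in this split was not tested. Gfap was found in 82.6%, 61.6% and 75.6% of Crym-positive and 85.6%, 60.1% and 89.4% of Crym-negative cells, with the 2 shares within a few percent of each other in libraries 1 and 2 and lower for Crym-positive cells in library 3. With a library left out 0 to 11 genes were higher and 1 to 13 lower, and without the library block none passed (24 genes at an unadjusted p under 0.05).

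**Figure D5:**
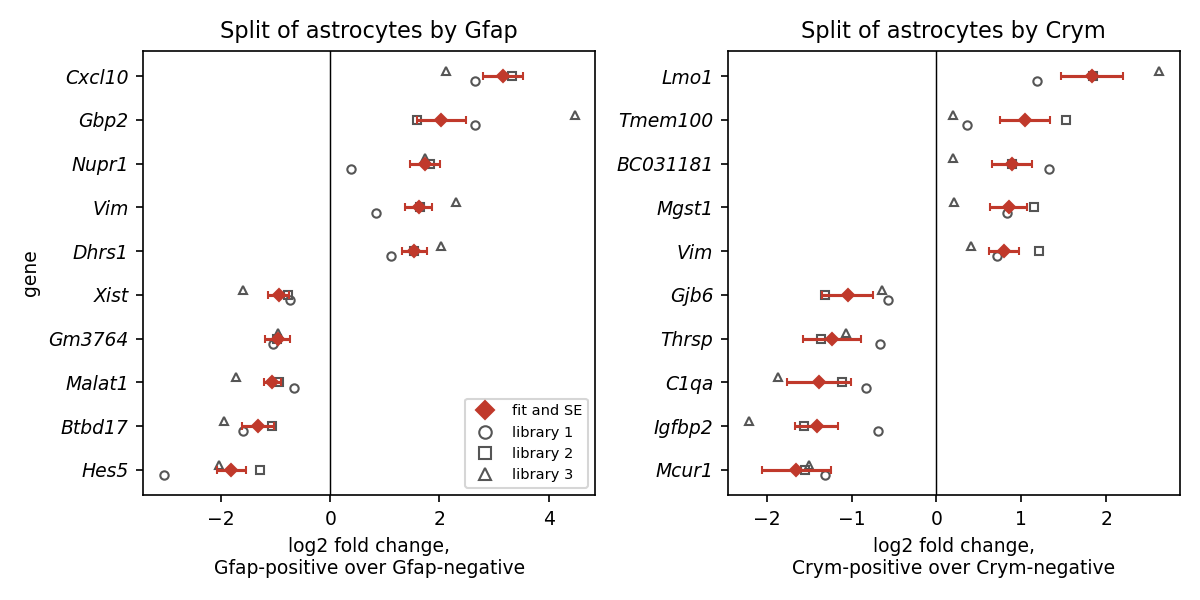
Log2 fold changes for the genes named by size in the split of astrocytes by Gfap (left) and by Crym (right); red diamonds with bars are the edgeR fit with its SE, and grey open symbols are single libraries computed from CPM + 10. Cxcl10 lies highest and Hes5 lowest on the left (3.17 and -1.81), and Lmo1 highest and Mcur1 lowest on the right (1.83 and -1.65).

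Oligodendrocyte precursors, the other glia with fine processes in grey matter, gave only 62 cells (6, 31 and 25), so this comparison is coarse. Of 4569 genes tested, 415 (9.08%) were higher and 236 (5.17%) lower in astrocytes by edgeR, but none passed in either direction with any 1 library left out (1414, 618 and 446 genes at an unadjusted p under 0.05). Gfap (5.53 ± 0.71), Aldoc (4.92 ± 0.67), Apoe and Mt1 (6.12 ± 0.93) were higher. Sox10 (-5.85 ± 0.58), the matrix protein Tnr (-5.51 ± 0.56), Olig1 (-4.77 ± 0.53) and Fabp7, a fatty acid-binding protein of progenitors (-2.09 ± 0.52), were lower. The rule for precursors required UMIs of Pdgfra or Cspg4 and of Olig1. The lower Olig1 of astrocytes is therefore a property of the selection, although Olig1 is among the 236 genes counted. Of genes that were higher against the other non-neuronal cells, Ptprz1, Cspg5, Bcan and Sox2, chosen after their values were seen, did not pass here: Ptprz1 had -0.71 ± 0.46, Cspg5 -0.27 ± 0.51, Bcan 1.24 ± 0.48 and Sox2 0.54 ± 0.47 (edgeR adjusted p = 0.36, 0.82, 0.085 and 0.54).

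UMIs of mCherry, the reporter of the FLiCRE construct, were found in 5.84% (exact 95% interval 3.5 to 9.08), 13.4% (10.0 to 17.3) and 13.7% (8.88 to 19.8) of astrocytes, against 7.73%, 20.3% and 11.6% of neurons and 1.24%, 10.5% and 2.71% of oligodendrocytes. At 1000 UMIs per cell the share of astrocytes was 3.10%, 5.32% and 4.70%. All other shares and intervals in this paragraph are of cells at their full, unequal depth. Free RNA gives such UMIs to cells that do not express a gene, and oligodendrocytes had a median depth of 1013, 2098 and 4121.5 UMIs against the 1469, 1815 and 3129 of astrocytes. In library 2 the shares of astrocytes and oligodendrocytes had overlapping intervals (10.0 to 17.3 and 7.72 to 13.8), and in libraries 1 and 3 they did not. The other construct features behaved differently. For tTA the intervals of the 2 classes overlapped in each library, and for TEV they overlapped in libraries 1 and 2 but not in 3. These intervals cover the counting of cells only.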

How the data were processed

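The authors deposited 1 matrix of raw UMI counts for 11625 cells and 28001 features (27998 genes and 3 construct features), made with Cell Ranger 3.0 on mm10 per the submitters' processing notes; the chemistry was 10x Genomics 3' v2, per the labels. Filters and doublet removal before deposit are not given in the sources used here, and no doublet caller was run. Cells with the oligodendrocyte, precursor or neuronal genes of the rule were kept out of the astrocytes, not out of the comparison group. Counts were summed per library and cell class and tested with edgeR 4.0.16 (R 4.3.3): quasi-likelihood test with robust dispersion, TMM scaling, filterByExpr, library as a block (each library gave 1 sum per class), and Benjamini-Hochberg adjustment over all genes tested, called at an adjusted p under 0.05. The fits were checked on simulated counts. DESeq2 1.42.0, no filter, other rules for members, no block and leaving out each library were alternatives. Genes named by size were the 15 higher and 5 lower past the threshold, of the same sign in 3 of 3 libraries and at least 100 CPM in the higher group (up to 5 each way within astrocytes), and list genes by level and change. Members, lists and tests were chosen with earlier results of these data known. Of 560 list genes 557 are in the matrix. Replicates shared no batch label. Some genes of the lists enter the counts but are not reported here by name.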

Additional observations from a re-analysis of the deposited data

How the results depend on the processing

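The comparison with other non-neuronal cells kept its counts within 1.5 times under DESeq2, no filter, no replicate block (1431 higher and 1430 lower), other rules for members and leaving out each library (1319 to 1498 higher, 1268 to 1687 lower). A ceiling of 10% mitochondrial UMIs, which left fewer astrocytes, gave 1093 higher and 1110 lower genes and a share of 5.34% of cells. Against neurons leaving out a library gave 2038 to 2787 higher and 1894 to 2739 lower, and against oligodendrocytes 1534 to 1593 and 1220 to 1261, while DESeq2 called 980 lower there. Against precursors no filter gave 733 higher and leaving out any library 0 to 0 in both directions. The replicate block decided the splits within astrocytes, where 0 genes passed without it. The Gfap split gave 19 higher and 1 lower with no filter, 2 lower with DESeq2, 12 lower with edgeR's default prior, 1 higher and 0 lower without thinning, 4 higher and 2 lower with another seed, 3 lower without cells holding ependymal markers, and 0 to 0 higher and 0 to 2 lower without a library. The Crym split gave 2 higher and 0 lower with DESeq2, 0 and 0 with no filter, 42 and 23 without thinning, and 0 to 11 higher and 1 to 13 lower without a library. Without thinning Agt was found in 4.20% and mCherry in 10.96% of astrocytes, against 1.997% and 4.37% with it. Of 6865 values of single genes under an alternative 6345 stayed on their side of the threshold, 466 no longer passed and 54 newly passed, and no value that had passed changed sign; the cause was not tested. The median of all genes against other non-neuronal cells moved from -0.06 to -0.24 with no filter, to which the fold changes are relative. Depth limits genes of a few CPM, which rest on a handful of UMIs per library.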
